A study of Mus musculus with 6 samples.

Results

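The matrix metalloproteinases (MMPs) and their tissue inhibitors (TIMPs) were followed here through 10 genes, chosen by family: Mmp2, Mmp3, Mmp9, Mmp10, Mmp13, Mmp14, Mmp15, Timp1, Timp2 and Timp3. They are 10 of the 54532 genes in the count table, 7 enzymes and 3 inhibitors. RNA came from cancer cells of mice carrying 2208L, a mammary tumour model, known as Trp53-null in origin, carried in the Balb/c strain. The CTC group consisted of 3 libraries of circulating tumour cells grown out of peripheral blood. The PT group consisted of 3 libraries of cancer cells enriched from the dissociated primary tumour. The same replicate number marks a CTC and a PT sample that the labels call matched. No sample was treated, and every library carried the same tumour model, 2208L, so the comparison speaks for that model alone. The CTC cells were propagated after collection and the labels say no such thing of the PT cells, so this handling and the group cannot be told apart.

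MMPs are zinc-dependent proteases that cut collagens, laminins, fibronectin, growth factors and cell surface proteins, and most are made as inactive proenzymes. TIMPs bind the active site of MMPs and block it, and Timp3 also binds proteases of the ADAM and ADAMTS families. In mammary tumours the secreted MMPs come largely from stromal and infiltrating cells, while Mmp14, the membrane-anchored MT1-MMP, is made by the cancer cells as well, and with Timp2 as a bridge it activates the Mmp2 proenzyme.

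Library totals ran from 23845953 to 27897320 counts, so that 3 counts, the smallest level taken as detected, corresponded to 0.107 to 0.129 CPM (counts per 1000000, with library sizes adjusted by edgeR's TMM factors). The summed CPM of 7 epithelial markers was 2188 to 5667 in CTC and 3880 to 4935 in PT, although Krt19 had 0 counts in CTC 3 and PT 3. The 8 leukocyte markers summed to at most 3.23 CPM and the 8 endothelial markers to at most 3.76 CPM in any library. In these bulk samples a smaller number of cells of a type and less RNA per cell cannot be told apart.

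In edgeR's quasi-likelihood test with Benjamini-Hochberg adjustment, 0 of the 9 members that passed the filter on low counts differed between CTC and PT at an adjusted p of 0.05. Over all 13874 genes tested this percentage was also 0, and the smallest adjusted p of any gene was 0.611. The adjusted p of the members ran from 0.726 to 0.957. At an unadjusted p of 0.05 the test marked 1 member, Mmp14, against 6.62% of all genes, 460 higher and 459 lower in CTC. The fit with the replicate pair as a block also called 0% of genes, and its smallest adjusted p for a member was 0.766. DESeq2 called 0.524% of genes unpaired and 1.84% with the pair as a block, and 0 members in either, with smallest adjusted p of 0.179 and 0.385 for a member. The log2 fold change (CTC minus PT) was above 0 in 6 of the 9 tested members and below 0 in 3, with a median of 0.40, against a median of 0.053 and 54.1% above 0 for all genes. That median depended on single libraries, being -0.67 without CTC 3 and -0.0018 without CTC 1, and it was -0.57 with the replicate block.

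**Figure D1:**
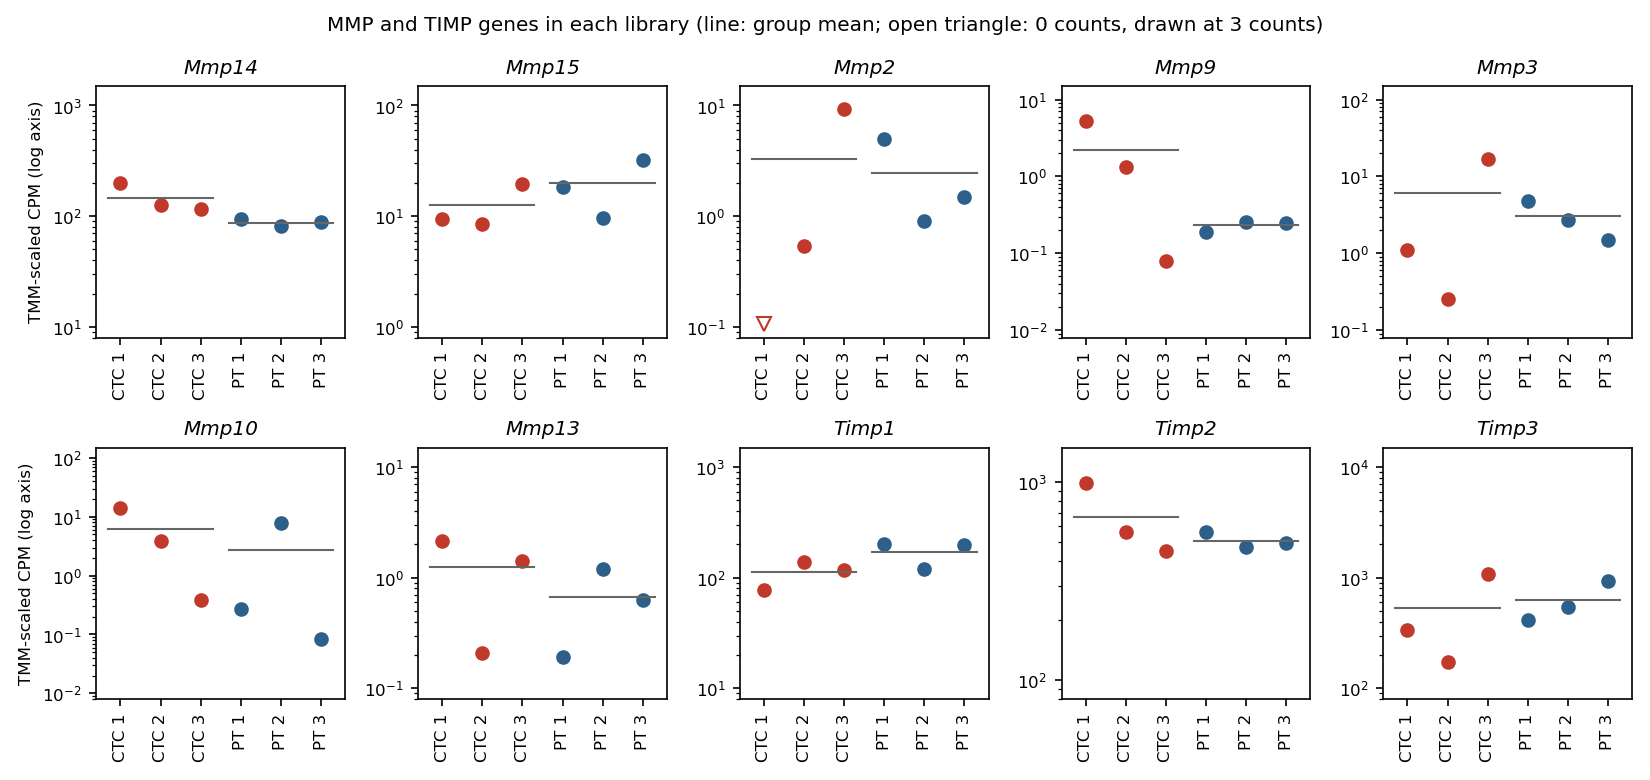
Level of each of the 10 members in the 6 libraries, in TMM-scaled CPM on a log axis, with CTC in red, PT in blue, group means as lines and the 0 counts of Mmp2 in CTC 1 drawn as an open triangle at 3 counts. Mmp14 is the member whose 3 CTC points (117 to 198 CPM) all lie above its 3 PT points (80.7 to 93.5 CPM), while Mmp2, Mmp3, Mmp9 and Mmp10 spread most within a group.

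Mmp14 (ENSMUSG00000000957, GRCm38 chr14:54431612-54445364, plus strand) is the membrane-type enzyme that cleaves fibrillar collagen at the cell surface and activates pro-Mmp2. It measured 198, 126 and 117 CPM in CTC 1 to 3, and 93.5, 80.7 and 88.4 CPM in PT 1 to 3. All CTC libraries lay above all PT libraries, CTC 1 stood highest, and the PT libraries were close together. The group means were 147 ± 44.6 CPM for CTC against 87.5 ± 6.49 CPM for PT (SD, n = 3 per group). The log2 fold change was 0.75 (SE 0.28, 95% confidence limits 0.10 and 1.40), with an unadjusted p of 0.0295 and an adjusted p of 0.726 in edgeR. The CTC library of each matched pair exceeded its PT partner, by 2.12-, 1.56- and 1.32-fold in pairs 1 to 3. Without CTC 1 the log2 fold change was 0.47. Mmp14 was the 1 tested member with such separate groups, a pattern with CTC above that 5.95% of all tested genes showed, and 0 members had CTC below PT in all libraries, against 6.16% of genes.

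Mmp15 (ENSMUSG00000031790, chr8:95352268-95375080, plus strand), or MT2-MMP, is the closest membrane-type relative of Mmp14. Its levels were 9.51, 8.55 and 19.4 CPM in CTC 1 to 3, against 18.3, 9.61 and 32.3 CPM in PT 1 to 3. The groups overlapped, since CTC 3 exceeded both PT 1 and PT 2, but within each pair the CTC library was the lower, at 0.52, 0.89 and 0.60 of its PT partner. Mmp15 averaged 12.5 ± 6.01 CPM for CTC against 20.1 ± 11.4 CPM for PT (SD, n = 3 per group), with a log2 fold change of -0.68 (SE 0.53, 95% confidence limits -1.91 and 0.54, edgeR adjusted p 0.778). Leaving out single libraries or pairs moved that value between -1.15 and -0.16. The pair of membrane-type enzymes thus had point estimates of opposite sign, and the difference between them was not tested.

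Mmp2 (ENSMUSG00000031740, chr8:92827291-92853420, plus strand), gelatinase A, degrades basement membrane collagen once Mmp14 has cut its propeptide. CTC 1 held 0 Mmp2 counts, CTC 2 13 and CTC 3 236, whereas PT 1 to 3 held 130, 21 and 36. As CPM these were 0, 0.542 and 9.23 in CTC and 4.98, 0.901 and 1.49 in PT. CTC 3 and PT 1 stood apart from the other 4 libraries, so each group had 1 high library and the groups overlapped. Within pair 1 the PT library lay at least 46.8-fold above the 3-count floor of its CTC partner, and within pair 3 the CTC library was the higher. The edgeR log2 fold change of Mmp2 was 0.40 (SE 1.57, 95% confidence limits -3.24 and 4.04, adjusted p 0.957), and its sign turned to -1.03 with the replicate block and to -3.19 without CTC 3.

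Mmp2 is a gene of fibroblasts in many tissues, and the summed fibroblast markers were highest in the same libraries, though not every marker was. The 11 fibroblast markers summed to 12.0, 134 and 539 CPM in CTC 1 to 3 and to 634, 29.5 and 115 CPM in PT 1 to 3, so CTC 3 and PT 1 stood above the rest. Col6a3, the alpha 3 chain of type VI collagen, made up most of the sum in both, with a level of 345 CPM for CTC 3 and 545 CPM for PT 1. Col3a1 was highest in CTC 3, at 125 CPM, and then in PT 3, at 23.4 CPM. Dcn was at 44.0 CPM in PT 1 and 33.2 CPM in CTC 2, against 0.391 CPM in CTC 3, and Pdgfrb peaked in CTC 2 at 8.50 CPM. Pdgfra, highest in CTC 3 and PT 1, ranged from 8.41 to 38.7 CPM, and Postn from 1.03 to 28.9 CPM. The remaining markers were low or absent: Lum had 0 counts in every library, Thy1 3, Fap 10, Col1a2 35 and Col1a1 113 counts in all 6 together. Whether cells of this kind contributed to the Mmp2 level was not tested.

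Mmp9 (ENSMUSG00000017737, chr2:164940780-164955850, plus strand), gelatinase B, is stored by neutrophils and also made by tumour cells and macrophages. Its counts were 149, 32 and 2 in CTC 1 to 3 and 5, 6 and 6 in PT 1 to 3, or 5.29, 1.33 and 0.0782 CPM against 0.192, 0.258 and 0.249 CPM. CTC 1 and CTC 2 lay above every PT library, and CTC 3 was under the 3-count floor and below all of them. Mmp9 did not pass the filter on low counts and was not tested with the others. In edgeR without that filter, where 0.728% of genes were called, its log2 fold change was 3.24 with an adjusted p of 0.174. The 11 neutrophil markers summed to 4.62 CPM in CTC 1, where Mmp9 was highest, to 7.75 CPM in CTC 2, and to 209.6 CPM in CTC 3, where it was lowest. In PT 1 to 3 they summed to 11.4, 93.0 and 33.5 CPM. Most of that sum was Ltf, a lactoferrin gene that mammary epithelium also expresses, at 182 CPM in CTC 3, followed by S100a8 at 25.3 CPM. Mpo, a granule enzyme, was at 0.71, 0.75 and 0.117 CPM in CTC 1 to 3 and 0.115, 1.89 and 0 CPM in PT 1 to 3. Among the CTC libraries Mpo was lowest in CTC 3, as was Mmp9. The low markers S100a9, Elane, Camp and Cxcr2 were instead highest of CTC in CTC 3, at 0.509, 0.469, 0.548 and 0.469 CPM. S100a9, Elane, Camp, Ngp and Cxcr2 had between 6 and 74 counts each over all 6 libraries, and Ly6g, Csf3r and Retnlg had 0. The part of such cells in the Mmp9 level was not tested. The macrophage markers summed to 58.9 to 77.4 CPM in CTC and 93.6 to 487 CPM in PT. Cd14 was the largest in every library, at 35.1 to 482 CPM, and Csf1r reached 20.3 CPM in CTC 2. Of the 4 tested in edgeR, Cd14 had a log2 fold change of -2.18, below 0. Those of Csf1r, Cd68 and Mrc1 were above 0, at 4.09, 0.61 and 0.73, and 0 of the 4 passed at an adjusted p of 0.05. Lyz2 had 1 count and Itgam 4 over all 6 libraries, and Adgre1 and C1qa had 0.

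The other 3 secreted enzymes lie on chromosome 9 in a cluster of 10 Mmp genes that spans 427 kb, 9 of them on the plus strand. Mmp3 and Mmp10 encode stromelysins, which cut proteoglycans, laminin and fibronectin and activate other proenzymes, and Mmp13 encodes the main interstitial collagenase of the mouse. The 250 bases before the RefSeq start of Mmp3 (chr9:7445572-7445821), Mmp10 (chr9:7502092-7502341) and Mmp13 (chr9:7272264-7272513), all on the plus strand of GRCm38.p6, are printed because these genes share promoter elements, while Mmp3 was highest in CTC 3 and both Mmp10 and Mmp13 in CTC 1. The window of Mmp14 (chr14:54431348-54431597, plus strand) is set beside them as the promoter of the member with separate groups. Capitals mark the AP-1 element TGAGTCA (found on either strand, so also as TGACTCA), the TATA box TATAAA (gene strand) and the GC box GGGCGG (either strand).
Mmp3: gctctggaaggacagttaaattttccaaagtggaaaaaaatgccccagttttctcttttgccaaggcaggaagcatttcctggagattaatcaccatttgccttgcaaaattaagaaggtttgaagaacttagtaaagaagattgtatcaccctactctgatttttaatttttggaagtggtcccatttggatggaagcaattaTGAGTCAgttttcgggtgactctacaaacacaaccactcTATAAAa
Mmp10: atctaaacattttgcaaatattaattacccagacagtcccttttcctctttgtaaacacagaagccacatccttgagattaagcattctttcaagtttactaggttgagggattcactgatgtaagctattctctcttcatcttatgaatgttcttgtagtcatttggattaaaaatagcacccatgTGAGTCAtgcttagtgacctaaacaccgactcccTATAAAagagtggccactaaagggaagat
Mmp13: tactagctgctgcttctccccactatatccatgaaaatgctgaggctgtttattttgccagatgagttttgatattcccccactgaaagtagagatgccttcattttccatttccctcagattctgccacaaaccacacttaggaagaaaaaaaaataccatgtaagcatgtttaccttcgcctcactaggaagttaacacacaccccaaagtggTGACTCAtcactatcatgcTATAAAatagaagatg
Mmp14: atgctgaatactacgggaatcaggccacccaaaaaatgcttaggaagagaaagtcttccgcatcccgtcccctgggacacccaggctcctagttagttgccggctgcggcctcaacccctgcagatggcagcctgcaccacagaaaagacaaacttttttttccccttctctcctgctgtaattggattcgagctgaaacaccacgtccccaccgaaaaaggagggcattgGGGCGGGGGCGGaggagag

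Each of the 3 cluster promoters held 1 AP-1 element and 1 TATA box, and neither motif was in the Mmp14 window. The AP-1 element began 46 bases before the RefSeq start in Mmp3, 63 in Mmp10 and 35 in Mmp13. The TATA box began 7, 29 and 16 bases before it, so the RefSeq starts do not lie at a common distance from the TATA box. An AP-1 element was in 4.46% of the 32851 RefSeq promoter windows of this length, and a TATA box in 7.59%. Mmp14 held 2 adjacent GC boxes starting 19 and 13 bases before the start, and a GC box was in 32.7% of all windows. The windows of Mmp15, Timp1, Timp2 and Timp3 also held 1 GC box each and no AP-1 or TATA match. The RefSeq start of Timp2 lies inside the gene as deposited, which starts at 118355740 on the minus strand. Its window (chr11:118355412-118355661) therefore falls within the deposited gene and not upstream of it. A RUNX core, ACCACA on either strand and in 14.0% of windows, was in Mmp13 and Mmp14. The cluster promoters were AT-rich, with 37.6%, 37.2% and 40.4% G and C in Mmp3, Mmp10 and Mmp13, against 55.2% in Mmp14 and a median of 52.4% over all windows. These matches describe letters and not occupied sites.

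**Figure D2:**
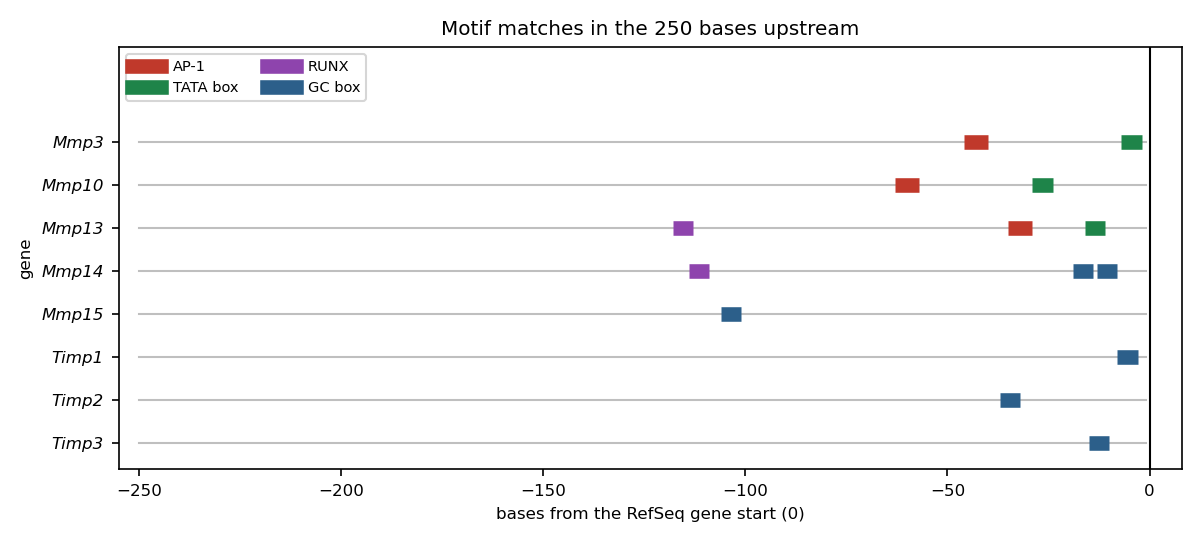
Positions of the AP-1, TATA, RUNX and GC box matches in the 250 bases before the RefSeq start of the 8 members with a promoter entry, in bases from the start. Mmp3, Mmp10 and Mmp13 carry an AP-1 match and a TATA match, whereas Mmp14, Mmp15 and the 3 Timp genes carry GC boxes.

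Mmp3 (ENSMUSG00000043613, chr9:7445822-7455975, plus strand), stromelysin 1, gave 1.10, 0.250 and 16.9 CPM in CTC 1 to 3 and 4.83, 2.75 and 1.49 CPM in PT 1 to 3. CTC 3 was highest and CTC 2 lowest, a 67.4-fold range inside 1 group that enclosed all PT libraries. The edgeR log2 fold change of Mmp3 was 1.00 (SE 1.28, 95% confidence limits -1.95 and 3.96, adjusted p 0.84), and it was -2.15 without CTC 3 and -1.11 with the replicate block. Like Mmp2, Mmp3 was highest in CTC 3 and PT 1, the libraries with the largest sums of fibroblast markers, whose part in this was not tested.

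Mmp10 (ENSMUSG00000047562, chr9:7502352-7510240, plus strand), stromelysin 2, is an epithelial relative of Mmp3 separated from it in the cluster by Mmp1a. Its levels were 14.1, 3.88 and 0.391 CPM in CTC 1 to 3 and 0.268, 7.85 and 0.0830 CPM in PT 1 to 3. CTC 1 and PT 2 were the highest, while PT 3, with 2 counts, was under the floor, and the groups overlapped. Counts of Mmp10 ran from 2 in PT 3 to 396 in CTC 1. CTC 1 and PT 2, the libraries with the highest Mmp10 of each group, were not those with the highest Mmp3. The edgeR log2 fold change of Mmp10 was 1.16 (SE 1.60, 95% confidence limits -2.55 and 4.87, adjusted p 0.854), turning to -0.36 without CTC 1 and reaching 5.04 without PT 2.

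Mmp13 (ENSMUSG00000050578, chr9:7272514-7283331, plus strand), collagenase 3, was low throughout, with 2.13, 0.208 and 1.41 CPM in CTC 1 to 3 and 0.192, 1.20 and 0.622 CPM in PT 1 to 3. Its counts were 5 to 60 per library, with CTC 1 and PT 2 the highest of their groups, as for Mmp10, CTC 2 and PT 1 the lowest, and the groups overlapping. The edgeR log2 fold change of Mmp13 was 0.90 (SE 0.94, 95% confidence limits -1.29 and 3.08, adjusted p 0.826), and -0.15 without pair 1. Of the other 7 genes of the cluster, Mmp1a and Mmp8 had 0 counts, and Mmp27, Mmp20, Mmp12, Mmp1b and Mmp7 had 1, 4, 16, 20 and 63 counts over all 6 libraries.

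Timp1 (ENSMUSG00000001131, chrX:20870166-20874735, plus strand) is the inducible, soluble inhibitor that binds most secreted MMPs, and it inhibits Mmp14 poorly. It measured 78.0, 139 and 118 CPM in CTC 1 to 3 and 201, 119.9 and 195 CPM in PT 1 to 3. PT 1 and PT 3 lay above every CTC library, while PT 2 was between CTC 3 and CTC 2. Timp1 averaged 112 ± 31.0 CPM for CTC against 172 ± 45.3 CPM for PT (SD, n = 3 per group), with a log2 fold change of -0.63 (SE 0.33, 95% confidence limits -1.38 and 0.13, edgeR adjusted p 0.726). The CTC level was 0.39 and 0.60 of the PT level in pairs 1 and 3, and 1.16 times it in pair 2. Leaving out single libraries or pairs gave log2 fold changes from -1.03 to -0.28. Timp1 overlaps Syn1, a gene on the opposite strand whose 396 counts over all libraries equalled 1.86% of those of Timp1.

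Timp2 (ENSMUSG00000017466, chr11:118301069-118355740, minus strand) is the constitutive inhibitor that links pro-Mmp2 to Mmp14 at the cell surface and in excess blocks Mmp14. Its levels were 989.7, 561 and 452 CPM in CTC 1 to 3 and 562, 468 and 492 CPM in PT 1 to 3. CTC 1 stood apart and the other 5 libraries lay close together, CTC 2 just inside the PT range and CTC 3 just below it. The means of Timp2 were 667 ± 285 CPM for CTC against 507 ± 48.5 CPM for PT (SD, n = 3 per group). Its log2 fold change of 0.40 (SE 0.34, 95% confidence limits -0.40 and 1.19, edgeR adjusted p 0.791) became -0.0018 without CTC 1, the same library that held the highest Mmp14. Timp2 overlaps Cep295nl, which had 296 counts, equal to 0.328% of those of Timp2.

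Timp3 (ENSMUSG00000020044, chr10:86300372-86349506, plus strand) is the inhibitor that stays bound to the extracellular matrix. It gave 334, 173 and 1081 CPM in CTC 1 to 3 and 413, 543 and 925 CPM in PT 1 to 3. CTC held both the lowest and the highest library, CTC 2 and CTC 3, and in both groups replicate 3 was the highest. Timp3 averaged 529 ± 485 CPM for CTC against 627 ± 266 CPM for PT (SD, n = 3 per group), with a log2 fold change of -0.24 (SE 0.65, 95% confidence limits -1.75 and 1.26, edgeR adjusted p 0.927). It was -1.31 without CTC 3 and 0.17 without CTC 2. Timp3 overlaps Syn3, on the opposite strand, whose 114 counts equalled 0.131% of those of Timp3.

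**Figure D3:**
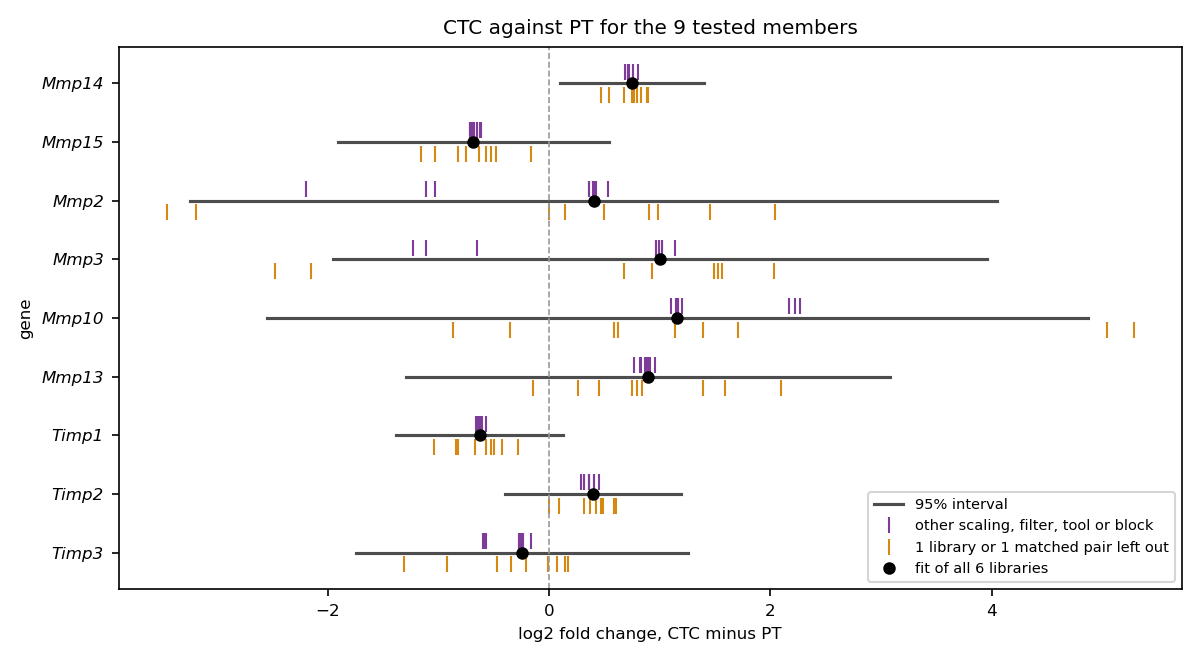
Log2 fold change (CTC minus PT) of the 9 tested members from edgeR's quasi-likelihood fit, with lines for the 95% interval, purple ticks for other scalings, filters, tools or the replicate block, and orange ticks for fits with 1 library or 1 pair left out. The interval of Mmp14 (0.10 to 1.40) lies above 0 before adjustment, and the other 8 intervals include 0, those of Mmp2 and Mmp10 being the widest.

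Levels of different genes were compared as CPM per kb of the deposited gene length. The 3 inhibitors stood highest, with means over the 6 libraries of 159.7 CPM per kb for Timp1, 151 for Timp2 and 71.0 for Timp3. Mmp14 followed at 19.7 CPM per kb, then Mmp15 at 3.02, Mmp10 at 2.57, Mmp3 at 2.52, Mmp2 at 0.848, Mmp13 at 0.359 and Mmp9 at 0.348 CPM per kb. Neighbours in that order from Mmp15 down did not differ beyond their spread, nor did Timp1 and Timp2, which changed places between the groups: Timp1 averaged 126 ± 34.9 CPM per kb in CTC and 194 ± 51.0 in PT, and Timp2 171 ± 73.0 and 130.2 ± 12.5. Timp2 was above Timp3 in every library but CTC 3, at 116 against 133 CPM per kb. The step from the inhibitors to Mmp14 was larger than the spread in PT, and in CTC 2 Timp3 and Mmp14 were level, at 21.2 and 21.1 CPM per kb. Mmp14 was above every other MMP in all 6 libraries.

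**Figure D4:**
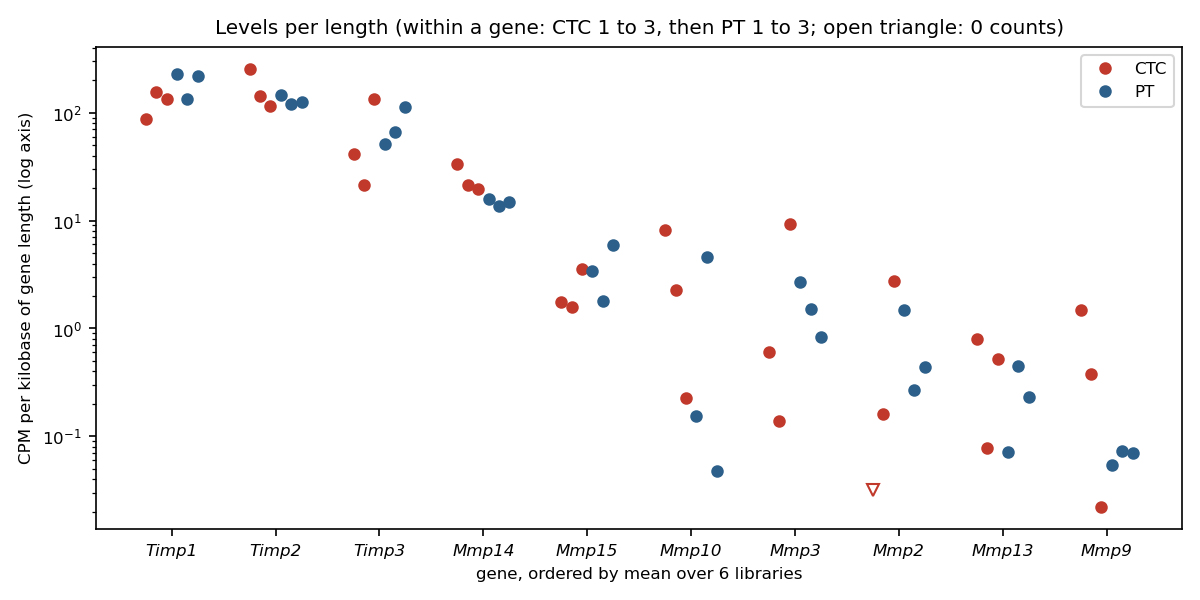
Levels of the 10 members per kb of gene length in the 6 libraries, in CPM per kb on a log axis, ordered by the mean, with an open triangle where Mmp2 had 0 counts. The Timp genes and Mmp14 form the top of the order, and Mmp14 exceeds the other MMPs in each library.

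Summed per kb, the 7 MMPs came to 46.1, 25.7 and 36.1 CPM per kb in CTC 1 to 3 and to 23.5, 22.2 and 22.4 in PT 1 to 3. Every CTC library was above every PT library, and the PT sums were close to each other. Mmp14 alone made up 72.2%, 82.2% and 54.4% of this sum in CTC and 66.7%, 61.0% and 66.1% in PT. Each of the other MMPs overlapped between the groups. The TIMP sum overlapped between the groups, at 383, 322 and 381 CPM per kb in CTC and 421, 322 and 460 in PT. The ratio of the TIMP sum to the MMP sum was 8.31, 12.5 and 10.6 in CTC and 17.9, 14.5 and 20.5 in PT, lower in every CTC library, with means of 10.5 ± 2.10 and 17.6 ± 3.00 (SD, n = 3 each). Timp2 per Mmp14 was likewise 7.64, 6.81 and 5.90 in CTC and 9.18, 8.88 and 8.50 in PT, without overlap. The MMP sum and both ratios contain Mmp14, so they are not results separate from that of Mmp14. No share over all genes was taken for them. As a percentage of the joint sum the TIMPs held 91.1 ± 1.69% in CTC and 94.5 ± 0.909% in PT; on CPM not divided by length the values were 87.6 ± 2.85% and 91.7 ± 1.12%, and the groups overlapped. These sums describe RNA and not protease activity, and as the members were chosen by family with earlier results known they carry no test.

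The genes around each member were measured to see whether a whole region moved with it. Over the genes within 5 Mb, the median log2 deviation from the 6-library mean stayed between -0.13 and 0.11 for the 102 neighbours of Mmp14 and between -0.17 and 0.16 for the 24 of Timp1. The 22 neighbours of Mmp3 ranged from -0.31 to 0.54, against -2.80 to 2.89 for Mmp3 itself. The neighbours of Mmp10 and of Mmp13 were highest in CTC 1, at 0.52, where Mmp10 and Mmp13 were also highest, Mmp10 at 3.23. In PT 2, where Mmp10 and Mmp13 were at 2.39 and 0.71, those neighbours were at -0.065. For Mmp9 the 88 neighbours went the other way, at -0.57 in CTC 1 where Mmp9 was 3.22 above its mean, and at 0.70 in CTC 3 where Mmp9 was at -1.87. The neighbours of Timp2 were at 0.50 in PT 1 and -0.21 in CTC 1, the library with the highest Timp2. The 79 neighbours of Timp3 were at 0.46, 0.11 and 0.26 in CTC 1 to 3 and at -0.37, 0.087 and -0.32 in PT 1 to 3. Their difference, CTC minus PT, was 0.48, the largest of any member, against -0.58 for Timp3, and was not tested. The neighbours of Mmp2 ranged from -0.22 to 0.30 and those of Mmp15 from -0.24 to 0.28.

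**Figure D5:**
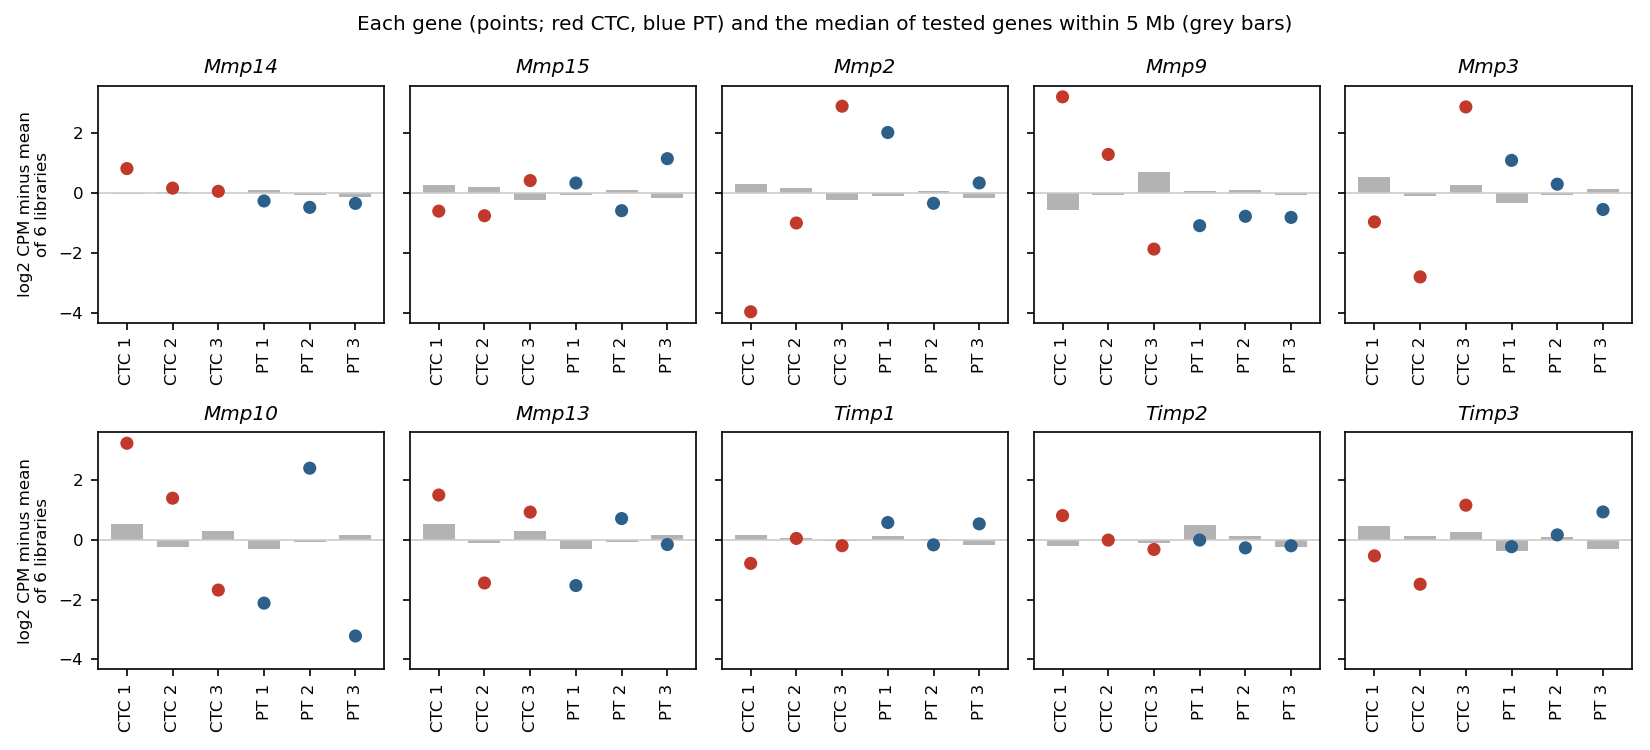
Log2 CPM of each member minus its mean over the 6 libraries (points, red for CTC and blue for PT), with the median deviation of the tested genes within 5 Mb as grey bars, 1 panel per member. The neighbour medians stay between -0.57 and 0.70, both extremes belonging to Mmp9. Most members spread more widely, but Mmp14 (-0.47 to 0.83), Timp1 (-0.79 to 0.58) and Timp2 (-0.32 to 0.81) span a similar range.

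Of the 18 other MMPs and inhibitors only Mmp11, Mmp28 and Mmp19 passed the filter on low counts. The MMP and TIMP sums above leave these 18 genes out. Mmp11, stromelysin 3, was at 9.18 ± 1.87 CPM for CTC against 8.19 ± 4.55 CPM for PT (SD, n = 3 per group; edgeR adjusted p 0.934). In CPM not divided by length, both means of Mmp11 were above those of Mmp2, Mmp3, Mmp9, Mmp10 and Mmp13. Mmp28, epilysin, had means of 2.68 ± 3.55 and 7.29 ± 4.60 CPM, and Mmp19 of 2.79 ± 2.81 and 0.967 ± 0.638 CPM (edgeR adjusted p 0.764 and 0.755). Reck, a membrane-anchored MMP inhibitor named after its values were seen, had 0 counts in CTC 1 to 3 and PT 1, 9 in PT 2 and 92 in PT 3.

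Among the 17 ADAM and ADAMTS proteases, relatives that cut membrane proteins and proteoglycans, 14 were tested and 0 passed at an adjusted p of 0.05, with 8 log2 fold changes above 0, 6 below and a median of 0.32. Adamts1, a protease of the matrix proteoglycan versican, averaged 130.4 ± 141 CPM for CTC against 64.3 ± 30.8 CPM for PT (edgeR adjusted p 0.764). The sheddase Adam10 averaged 112 ± 47.4 and 81.2 ± 15.6 CPM (edgeR adjusted p 0.778), and Adam9 101 ± 42.8 and 104 ± 48.9 CPM. Adam15 averaged 100.3 ± 17.6 and 101 ± 31.3 CPM. Adam12, named after its values were seen, was at 77.4, 23.7 and 0.978 CPM in CTC 1 to 3. In PT 1 to 3 it was at 3.76, 4.46 and 3.07 CPM, so the groups overlapped. Its log2 fold change in edgeR was 3.18 with an adjusted p of 0.726, and with an adjusted p of 0.0143 without the filter on low counts. In DESeq2 the adjusted p of Adam12 was 0.441, and 0.685 with the replicate block.

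Of the 17 activators, anchors and partners of MMPs, 16 were tested and 0 passed in edgeR, 9 being above 0 and 7 below with a median of 0.17. Furin, named for its role as the convertase that removes the propeptide of Mmp14 and with its values known, averaged 155 ± 32.6 CPM for CTC against 136 ± 25.2 CPM for PT (edgeR adjusted p 0.865). Cd44, a docking receptor for Mmp9 and Mmp14, averaged 426 ± 197 and 298 ± 69.5 CPM (edgeR adjusted p 0.771). Sdc1 averaged 1401 ± 559.6 and 941 ± 32.1 CPM, and Bsg, or EMMPRIN, an inducer of MMPs, 527 ± 88.4 and 585 ± 209 CPM. Cav1, the scaffold of caveolae, was the most abundant of the list, at 2213 ± 1394 and 1903 ± 1214 CPM.

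Other genes of that list are named after their values were seen. Plau, urokinase, which generates the plasmin that activates several pro-MMPs, was at 470.2, 127 and 40.5 CPM in CTC 1 to 3 and 26.5, 39.0 and 47.5 CPM in PT 1 to 3. CTC 1 stood far above the rest and CTC 3 lay inside the PT range. The log2 fold change of Plau in DESeq2 was 2.46 with an adjusted p of 0.0352, and 1.82 with an adjusted p of 0.176 under the replicate block. The convertase gene Pcsk6 was at 1.74, 7.50 and 44.0 CPM in CTC and 50.1, 91.2 and 190.2 CPM in PT, below PT in every CTC library. In DESeq2 the log2 fold change of Pcsk6 was -2.66 with an adjusted p of 0.0883, and -3.53 with an adjusted p of 7.3e-08 under the replicate block. Pcsk5, a related convertase, was at 0.0710, 0.208 and 0.665 CPM in CTC and 0.422, 10.7 and 29.9 CPM in PT, with CTC 3 just above PT 1. In DESeq2 Pcsk5 had a log2 fold change of -5.46 with an adjusted p of 0.049, and of -5.01 with an adjusted p of 9.95e-08 under the replicate block. The tools and the filter on low counts both mattered here. In the main edgeR fit Plau, Pcsk6 and Pcsk5 each had an adjusted p of 0.726. With the block in edgeR it was 0.773 for Plau and 0.592 for both Pcsk6 and Pcsk5. In edgeR without the filter it was 0.00626 for Plau, 0.0175 for Pcsk6 and 0.00198 for Pcsk5. Plg, which encodes plasminogen and is a liver gene, had 0 counts.

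All 20 transcription factors of the regulator list were tested and 0 passed in edgeR, with 12 above 0, 8 below and a median of 0.13. The most abundant were Stat3 at 246 ± 104 CPM for CTC against 377 ± 73.2 CPM for PT (edgeR adjusted p 0.727), the AP-1 subunit Junb at 247 ± 27.3 and 260.2 ± 31.2 CPM, and the NF-kB subunits Rela and Nfkb1, whose means were 163 ± 27.2 against 152 ± 34.5 and 152 ± 56.3 against 148 ± 16.7 CPM. In 3 of the 20 every CTC library was above every PT library and in 2 every one was below, where 5.95% and 6.16% of all tested genes did so, and these 5 are named for that reason after their values were seen. Fosl1, an AP-1 subunit, was at 113, 146 and 86.8 CPM in CTC and 69.7, 48.8 and 36.7 CPM in PT. Ets2 was at 235, 214 and 113 CPM against 78.5, 89.8 and 102 CPM, and Runx2, which acts on Mmp13 in bone, at 56.8, 44.4 and 50.2 CPM against 41.9, 25.0 and 44.3 CPM. On the other side Etv4 was at 61.1, 89.4 and 79.7 CPM in CTC and 209.9, 149 and 91.3 CPM in PT, and its PEA3 relative Etv5 at 33.9, 72.1 and 65.5 CPM against 188, 171 and 117 CPM. In DESeq2 Etv5 had a log2 fold change of -1.50 with an adjusted p of 0.0983, and of -1.54 with an adjusted p of 0.0277 under the replicate block. The edgeR adjusted p of Etv5 was 0.726, 0.762 with the block and 0.0428 without the filter on low counts.

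Of 20 substrate genes 16 were tested and 0 passed in edgeR, 8 above 0 and 8 below, with a median of -0.03. Spp1, osteopontin, averaged 1644 ± 1114 CPM for CTC against 3075 ± 348 CPM for PT (edgeR adjusted p 0.727), and Fn1, fibronectin, 1210 ± 517 and 1399 ± 852 CPM. Lamb3, a laminin chain of the epithelial basement membrane, averaged 453 ± 234 against 408 ± 193 CPM. Lama3, a laminin alpha chain, named after its values were seen, was at 274, 111 and 39.8 CPM in CTC 1 to 3 and 31.9, 16.8 and 30.6 CPM in PT 1 to 3, above PT in every CTC library. Its log2 fold change in DESeq2 was 2.38 with an adjusted p of 0.0178, and 2.09 with an adjusted p of 0.0128 under the replicate block. Tnc, tenascin C, also named after its values were seen, was at 57.5, 7.30 and 154 CPM in CTC 1 to 3 and 197, 89.4 and 219 CPM in PT 1 to 3, with overlapping groups and each CTC library below its partner. In DESeq2 Tnc had a log2 fold change of -1.25 with an adjusted p of 0.746, and of -1.97 with an adjusted p of 0.0287 under the replicate block. The edgeR adjusted p was 0.726 for Lama3 and 0.764 for Tnc, and 0.762 and 0.766 with the block. In edgeR without the filter on low counts it was 0.00314 for Lama3 and 0.474 for Tnc.

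Genes with the most similar profile to each member were taken by Pearson correlation of log2 CPM over the 6 libraries, among 9396 abundant protein-coding genes. With 6 points that share libraries many genes reach a high value, and between 33 genes for Mmp3 and 211 for Mmp9 had r above 0.9. For Mmp14 the closest were Slc22a23, Man2a1 and Scoc (r 0.99, 0.98 and 0.98), and for Mmp15 Pigc, Efna5 and Clasp2. Mmp2 was closest to Oplah, Ak1 and Sall2, Mmp3 to Pbxip1, Psmb8 and Slc7a11, Mmp9 to Vwa8, Anln and Plekhb2, and Mmp10 to Tbc1d15, Wdr45 and Kif3c. Timp1 was closest to Thoc3, Scd2 and D2hgdh, and Timp2 to Stk10, Spag5 and Larp1b. Timp3 was closest to Atp6v1g1, Trim8 and Adamts4, an aggrecan-cleaving protease that Timp3 inhibits. Between members the highest correlations were 0.90 for Mmp9 with Timp2 and 0.85 for Mmp14 with Timp2, all 3 of these genes being highest in CTC 1, and the lowest was -0.94 for Mmp2 with Mmp9.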

How the data were processed

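The values deposited by the authors are raw counts of reads for each Ensembl gene, in 1 table that also lists gene length in bases. Per the submitters' processing notes, reads were aligned with HISAT2 and the builds GRCm38 and mm10 are named; the aligner's version, the read counter, annotation release and strand setting are unstated (not given in the sources used here). Overlapping and antisense genes therefore cannot be told apart. Of 54409 genes shared with GENCODE M21, 98.3% had the same start and end, the 10 members among them, and coordinates are as deposited.

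The labels name the samples biological replicates. The members and lists were chosen with earlier results of these data known. The main comparison, CTC against PT over 6 libraries, used edgeR 4.0.16 (R 4.3.3; filterByExpr, TMM factors, quasi-likelihood F-test, Benjamini-Hochberg adjustment over all genes, threshold 0.05). Its fold change estimates were checked on simulated counts, and the share of changes it could call is not given here. Alternatives were a replicate block, other scalings and filters, DESeq2 1.42.0, limma-voom 3.58.1, and leaving out each library or pair. The pairing comes from the labels, which call each PT sample matched with the CTC sample of its number. Deviations of same-numbered libraries correlated at -0.015, 0.157 and 0.298. No 2 libraries agreed within sampling noise (chi-square per degree of freedom at least 62.1). Floors cover counting error only. Log2 levels used a prior count of 2.

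Named genes were all 10 members, the 4 most abundant tested genes of each list (1 of them is not reported here), and the 3 protein-coding genes most correlated with each member of mean CPM of at least 1, among genes of mean log2 CPM of at least 3. Promoter sequences are from RefSeq, GRCm38.p6; 8 of 10 members had an entry.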

Additional observations from a re-analysis of the deposited data

How the results depend on the processing

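With 3 libraries a group and wide spread within groups, these data limit what could be called: over 9 tested members and 18 alternative settings, 0 of 162 refits put a member past the threshold (smallest adjusted p 0.317), 144 kept the sign and 18 turned it. Mmp14, Mmp15 and Timp1 kept their sign in every one. With a replicate block, edgeR gave Mmp2 -1.03 and Mmp3 -1.11, and DESeq2 gave -1.11 and -1.23; limma-voom gave -2.19 and -0.65. Leaving out single libraries or pairs gave -3.45 to 2.04 for Mmp2, -2.48 to 2.03 for Mmp3, -0.87 to 5.28 for Mmp10, -0.15 to 2.09 for Mmp13, -0.0018 to 0.61 for Timp2 and -1.31 to 0.17 for Timp3. The members' median of 0.40 was -0.57 with the edgeR replicate block, -0.60 with DESeq2 and the block, -0.58 with limma-voom, and -0.67 to 0.83 with libraries or pairs left out. Members with CTC above PT numbered 1 to 2 and below PT 0 to 4 when libraries were left out, 4 without CTC 3. No share over all genes was taken for these smaller sets of libraries. The counts are therefore no result about the members. Over all genes, 121 were called higher and 78 lower in CTC by edgeR without the filter, and 40 and 47 by DESeq2. DESeq2 with the block called 119 and 134, against 0 and 0 in the main edgeR fit. These calls were 0.728%, 0.524% and 1.84% of the genes given an adjusted p. Of the 5 context lists, with 18, 17, 17, 20 and 20 genes, these settings called 3 and 4, 2 and 1, and 1 and 4. As the lists were chosen with earlier results known, these counts are no result about the lists. The TIMP percentage not divided by length was 87.6 in CTC and 91.7 in PT. The replicate block changed no call of a member. The causes of these shifts were not tested.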
